A study of Mus musculus with 33 samples.

Results

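The integrated stress response was followed through 10 genes, Atf4 and 9 genes that ATF4 is known to act on, in bulk RNA of mouse lymphoid organs after nicotinamide (NAM, a form of vitamin B3) was given by mouth. The genes were listed by name, and each matched 1 of the 56414 rows of the expression table. The mice were C57Bl/6 without tumours and were either left untreated or given NAM at 0.5% in the drinking water over 1, 3 or 14 d. The study describes its animals as female and gives an age range for the study as a whole, not for these groups. The 33 libraries comprised 20 labelled spleen, 5 in each of the 4 groups, and 13 labelled lymph node, of which 3 were untreated and 2, 4 and 4 came from 1, 3 and 14 d. No genotype or treatment other than NAM was given, and the labels do not say whether an animal gave both organs. The 20 and the 13 libraries are called the spleen-labelled and the lymph-node-labelled set. Values are normalised read counts, that is, reads per gene divided by a size factor of the library.

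The integrated stress response starts when a kinase of the eIF2 alpha family senses amino acid shortage, haem shortage, double-stranded RNA or misfolded protein and phosphorylates the translation factor eIF2. General protein synthesis then slows while the mRNA of ATF4, a basic leucine zipper (bZIP) transcription factor, is translated more. ATF4 pairs with C/EBP family factors and drives genes for amino acid synthesis and uptake, for tRNA charging and for cell death, so that mRNA of its targets is often used as a readout of the response. Since much of the control of ATF4 is on translation, the level of Atf4 mRNA alone is a limited readout.

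The tissue labels went against their markers in all 33 libraries. Glycam1, a mucin made by the high endothelium of lymph nodes, read 108200 to 214200 normalised counts in libraries labelled spleen and 1.585 to 12.38 in those labelled lymph node, while Spic, a factor of splenic red pulp macrophages, read 774.3 to 1295 and 6117 to 10490. Tissues are therefore named only as labelled, and the values below cannot be assigned to an organ with certainty. Depth was 18325061 to 54830743 reads in the spleen-labelled set, where every 3 d library (from 43632016) was deeper than every untreated and 1 d one, and 30424968 to 46733974 in the lymph-node-labelled set. Fewer cells of a type and less RNA per cell cannot be told apart in such bulk samples, and the study describes its transcriptomes as coming from mice of a single experiment, so the p-values measure only the spread between libraries of that experiment.

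Atf4 was the most abundant of the 10 genes per length in both sets. In untreated libraries labelled spleen its level was 2891 ± 83.0 normalised counts per kb of exon (SD, n = 5), against 600.2 ± 35.61 for Phgdh, the next in order. Phgdh, Aldh18a1 (559.8) and Slc7a5 (530.1) followed closely, with ranges over the libraries that overlapped between neighbours. Psat1 (215.3), Atf5 (171.3), Asns (120.3) and Ddit3 (74.11) formed a further run in which neighbours overlapped. Trib3 (33.05 per kb) and Chac1 (15.66 per kb) were the lowest, and each lay apart from its neighbour above. In the lymph-node-labelled set Atf4 again led with 4269 ± 273.6 per kb (SD, n = 3) and Chac1 was again last with 12.42, but Atf5 lay lower in the order, at 54.07 between Ddit3 (158.9) and Trib3 (31.23).

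For 4 genes the ranges over the libraries of the 2 labels did not overlap. In untreated libraries the mean normalised count of Ddit3 was 2.144 times as high and that of Atf4 1.477 times as high in the lymph-node-labelled set as in the spleen-labelled set. Atf5 lay 3.168 times and Slc7a5 1.863 times the other way. The 2 sets of libraries were scaled separately by the authors, so these ratios of levels carry that limit and were not tested.

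**Figure D1:**
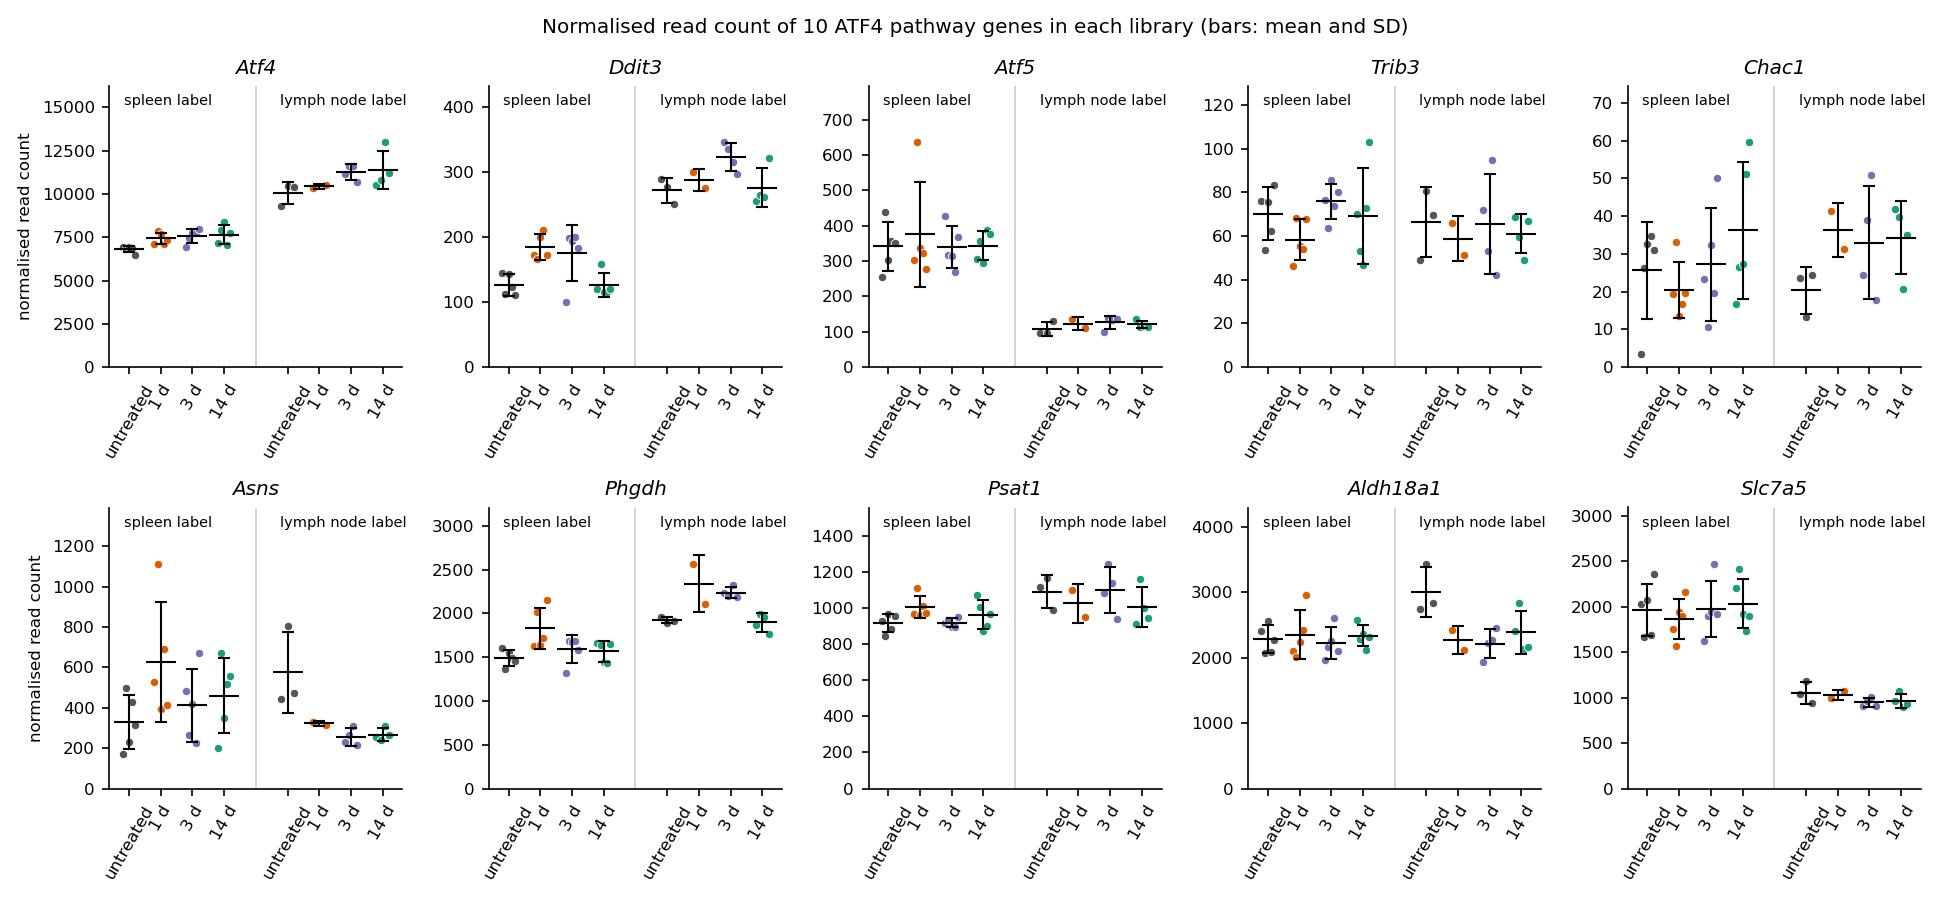
Normalised read count (linear axis from 0) of each of the 10 genes in every library, by label and time on NAM, with bars for the group mean and SD. Ddit3 at 1 d in the spleen-labelled set sits wholly above untreated (166.2 to 211.1 against 110.4 to 145.4), and Asns in the lymph-node-labelled set sits wholly below untreated at 1, 3 and 14 d.

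Atf4 itself (chromosome 15, 80255184 to 80257544, plus strand, mm10) moved little. In libraries labelled spleen its 5 untreated values were 6954, 6841, 6915, 6902 and 6475 normalised counts, and the 1 d values were 7133, 7873, 7713, 7133 and 7320. All 5 libraries at 1 d and all 5 at 14 d (7047 to 8386) lay above all untreated ones, and 4 of 5 at 3 d did. The log2 change was 0.12 at 1 d, 0.15 at 3 d and 0.17 at 14 d (SE 0.057 each), and by limma none passed the threshold of an adjusted p under 0.05 (adjusted p = 0.144, 0.126 and 1). The untreated values of the lymph-node-labelled set were 9322, 10460 and 10420, those at 3 d 10670 to 11640 and those at 14 d 10540 to 12990. These changes were 0.055, 0.16 and 0.18 at 1, 3 and 14 d and did not pass either (adjusted p = 0.822, 0.298 and 0.331). In the spleen-labelled set at 3 d, replicate 1 had the lowest Atf4 of its group, 6928, and without that library the change was 0.18 with an adjusted p of 0.0318.

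Ddit3 (chromosome 10, 127290793 to 127296288, plus strand) encodes CHOP, a bZIP factor that acts downstream of ATF4 and promotes cell death under lasting stress. Its normalised counts in the spleen-labelled set were 145.4, 112.0, 143.9, 123.0 and 110.4 in untreated libraries and 172.3, 166.2, 200.7, 211.1 and 172.0 at 1 d, so the groups did not overlap. Ddit3 rose at 1 d, with a log2 change of 0.54 (95% interval 0.196 to 0.881, SE 0.164, adjusted p = 0.0301). At 3 d, 4 libraries held 183.2 to 200.0 while replicate 1 held 100.7, below every untreated library. The change at 3 d was 0.43 with an adjusted p of 0.126, and without replicate 1 it was 0.62 with an adjusted p of 0.00174. At 14 d the values were 119.6, 158.3, 115.1, 116.1 and 120.4, back within the untreated range but for 1 library, and Ddit3 was lower at 14 d than at 1 d by 0.55 on the log2 scale (-0.55, 95% interval -0.894 to -0.209, adjusted p = 0.0362). These are shallow counts, with 84 to 209 reads per library in the untreated and 1 d groups. Over 11 alternatives of the processing that kept the threshold on the adjusted p, this p at 1 d ran from 0.00121 to 0.0722 and the call held in 10. The call at 1 d was lost without untreated replicate 2, 4 or 5 or 1 d replicate 3 or 4, with an adjusted p of at most 0.0734, and the call of 14 d against 1 d was lost in 6 such fits, without 14 d replicate 1, 3, 4 or 5 or 1 d replicate 3 or 4 (at most 0.0873). Over the 11 alternatives the latter call held in 9, with an adjusted p from 0.00509 to 0.0843, and was lost without the filter on low values and under quantile scaling.

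Ddit3 did not pass at any time in the lymph-node-labelled set. The untreated values were 288.8, 276.8 and 250.8 normalised counts, the 1 d values 300.2 and 275.3, and the 3 d values 345.8, 335.2, 314.9 and 297.7. All 4 libraries at 3 d lay above all untreated ones, with a log2 change of 0.25. The changes at 1 and 14 d were 0.08 and 0.02. The differences in change from the spleen-labelled set were 0.46, 0.18 and -0.03 at 1, 3 and 14 d and did not pass (adjusted p = 0.347, 0.799 and 1).

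Trib3, a pseudokinase that ATF4 and CHOP induce and that in turn restrains them, gave no call. Its normalised counts ran from 46.2 to 103.0 in the spleen-labelled set and from 42.31 to 94.67 in the lymph-node-labelled set. The log2 changes from untreated were -0.26, 0.12 and -0.06 at 1, 3 and 14 d in the spleen-labelled set and -0.15, -0.06 and -0.10 in the lymph-node-labelled set.

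Atf5 encodes a bZIP factor whose mRNA, like that of ATF4, is translated more when eIF2 is phosphorylated. Its normalised count ran from 254.5 to 636.0 in the spleen-labelled set and from 95.94 to 139.7 in the lymph-node-labelled set. The highest value, 636.0, came from replicate 2 at 1 d in the spleen-labelled set, whose group otherwise held 276.1 to 337.0. No change of Atf5 passed, with log2 changes of 0.09, -0.004 and 0.03 in the spleen-labelled set and 0.19, 0.24 and 0.17 in the lymph-node-labelled set. Exons of Atf5 on chromosome 7 overlap those of Il4i1 and Nup62 on the other strand, and strand use in the counting is not given, so its reads may include theirs.

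Of the serine synthesis genes, Phgdh, the first enzyme of the pathway from 3-phosphoglycerate, rose at 1 d in the spleen-labelled set. Phgdh lies on chromosome 3 from 98313170 to 98339969 on the minus strand. The untreated values were 1602, 1370, 1547, 1489 and 1453 normalised counts and those at 1 d 1628, 2015, 1645, 1722 and 2149, again without overlap, although the nearest values were 1602 and 1628. The log2 change was 0.29 (95% interval 0.107 to 0.470, SE 0.087, adjusted p = 0.0288). At 3 d it was 0.09 and at 14 d 0.07, and neither passed. The call was lost without untreated replicate 2, 4 or 5 or 1 d replicate 2 or 5 (adjusted p of at most 0.0733), and in a fit of only the untreated and 1 d groups (0.0561), the 1 of those 11 alternatives in which it did not hold (0.0144 to 0.0561). Where a call instead needed a 1.5-fold change and took the p without adjustment, neither Ddit3 nor Phgdh passed at 1 d.

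The mean of Phgdh in the lymph-node-labelled set was also highest at 1 d. The values were 1959, 1892 and 1917 normalised counts in untreated libraries, 2568 and 2111 at 1 d, 2187 to 2322 at 3 d and 1764 to 1993 at 14 d. The libraries at 1 and 3 d lay above all untreated ones and those at 14 d overlapped them. The log2 changes were 0.28 (adjusted p = 0.131), 0.22 (0.163) and -0.02, and of the 5 fits that each left out an untreated or 1 d library the first passed only without 1 d replicate 2 (0.42, adjusted p = 0.0436). That fit leaves the 1 d group with 1 library, which is assumed to vary like the other groups. The library, replicate 1, had a summed level of 9 pancreatic acinar markers of 103900 normalised counts against 6.715 in replicate 2. Without replicate 1, again with a single library at 1 d, the change was 0.14 (adjusted p = 0.51).

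Psat1, the next enzyme of the serine pathway, did not pass in any comparison. Its normalised counts stayed within 843.2 to 1107 in the spleen-labelled set and 911.4 to 1244 in the lymph-node-labelled set, among the narrowest ranges of the 10 genes. The largest log2 change from untreated was 0.13 at 1 d in the spleen-labelled set (SE 0.064, adjusted p = 0.167).

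Asns, asparagine synthetase, varied more between libraries than any other member but Chac1, with a highest value 6.434 times the lowest in the spleen-labelled set and 3.715 times in the lymph-node-labelled set. By limma it was the only member called in the latter. The gene lies on chromosome 6 from 7675165 to 7693200 on the minus strand. The untreated values of the lymph-node-labelled set were 445.0, 806.1 and 475.1 normalised counts. They were 332.4 and 314.5 at 1 d, 228.7, 266.2, 312.2 and 217.0 at 3 d, and 253.6, 239.3, 312.2 and 264.5 at 14 d. Every treated library lay below every untreated one. Asns fell at 3 d (log2 change -1.13, 95% interval -1.497 to -0.756, SE 0.175, adjusted p = 0.00263) and at 14 d (-1.06, -1.427 to -0.686, SE 0.175, adjusted p = 0.00983), while at 1 d the change of -0.78 (SE 0.210) did not pass (adjusted p = 0.0864). Leaving out any 1 library kept both calls, with adjusted p from 0.00321 to 0.0135 at 3 d and from 0.00724 to 0.0482 at 14 d. Over 12 alternatives of the processing the log2 change lay between -1.28 and -1.036 at 3 d and between -1.157 and -1.018 at 14 d, and the calls held in 11 and 10. A fit of only the untreated and 14 d groups gave 0.0641.

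Markers of erythroid cells moved with Asns in that set. The summed level of 6 erythroid genes (Alas2, Klf1, Slc4a1, Epor, Ermap and Rhag) was 18090 to 29860 normalised counts in untreated libraries, 11200 to 19060 at 1 d, 2323 to 11350 at 3 d and 8471 to 12500 at 14 d. None of the 6 was at 0 in any of these libraries. By limma 0 of the 6 were called at 1 d, 6 of 6 were lower at 3 d (median log2 change -3.16) and 3 of 6 at 14 d (-2.14). With the erythroid score of each library, the mean log2 level of the 6 genes, as a covariate, the log2 change of Asns was -1.28 at 3 d and -1.16 at 14 d, without a call (adjusted p = 0.999 and 0.716), and that fit called 0 rows of the whole table at 3 d and at 14 d. Over the 13 libraries Asns and the erythroid score had a Pearson r of 0.69 (permutation p = 0.00866, adjusted p = 0.13 over 180 relations) and a Spearman rho of 0.68 (permutation p = 0.0134, adjusted 0.129). The r was 0.70 without the 2 libraries farthest from the median score, and -0.13 within groups.

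In the spleen-labelled set Asns lay the other way and no call was made. The untreated values were 173.1, 496.0, 231.4, 430.0 and 314.8 normalised counts, and the 1 d values were 528.4, 1114, 396.5, 691.6 and 411.9, so the groups overlapped. The log2 change at 1 d was 0.92 (95% interval 0.156 to 1.690, SE 0.368) with an adjusted p of 0.0919. At 3 d the values ran from 225.9 to 671.8 and at 14 d from 199.0 to 670.8, with log2 changes of 0.32 and 0.46.

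The change of Asns differed between the sets by 1.70 at 1 d, 1.44 at 3 d and 1.52 at 14 d on the log2 scale, spleen minus lymph node label. Unadjusted p-values of this limma interaction were 0.00446, 0.0065 and 0.00438, and none passed after adjustment over 17147 rows (0.0987, 0.164 and 0.531). The opposite directions of Asns under the labels are therefore values that did not pass the test of their difference.

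Adipocyte markers moved with Asns in the spleen-labelled set. The 8 markers (Adipoq, Plin1, Cfd, Lep, Retn, Cidec, Plin4 and Car3) summed to 26550 to 154100 normalised counts in untreated libraries, 87390 to 364100 at 1 d, 42560 to 169800 at 3 d and 33770 to 186800 at 14 d, and none was at 0 in any library. At 1 d, 1 of the 8, Retn, was called higher. Over the 20 libraries Asns and the adipocyte score had a Pearson r of 0.95 and a Spearman rho of 0.95, both at a permutation p of 1e-05 (100000 permutations give no smaller one), and an adjusted p of 0.0018 over 180 relations. The r was 0.91 without the 2 libraries farthest from the median score and 0.94 within groups. With the adipocyte score as a covariate the log2 change of Asns at 1 d was 0.27 (adjusted p = 0.184) in place of 0.92. The calls of Ddit3 (0.62, adjusted p = 0.0149) and Phgdh (0.33, adjusted p = 0.0151) at 1 d were kept in that fit. The same 8 markers summed in the lymph-node-labelled set to 24.31 to 266.3, and 6 of them were at 0 in some library. Of the neutrophil markers (S100a8, S100a9, Mpo, Elane, Ltf and Camp) 1 of 6 was called higher at 1 d in the spleen-labelled set, with a median log2 change of 1.55. They summed to 225.1 to 1106 normalised counts in untreated libraries and 579.4 to 10250 at 1 d, with Camp at 0 in some library of the set. Over the 20 libraries their score had an r of 0.34 with Ddit3, 0.25 with Phgdh and 0.28 with Asns (adjusted permutation p = 0.451, 0.582 and 0.558). Within groups r was 0.08, -0.13 and 0.01, and no fit took this score as a covariate. At 1 d 1 of 7 plasma cell, 1 of 2 skeletal muscle and 1 of 4 high endothelial venule markers tested were lower. There 1 of 4 red pulp macrophage markers was higher, where 8.56% of all rows were higher and 8.05% lower.

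**Figure D2:**
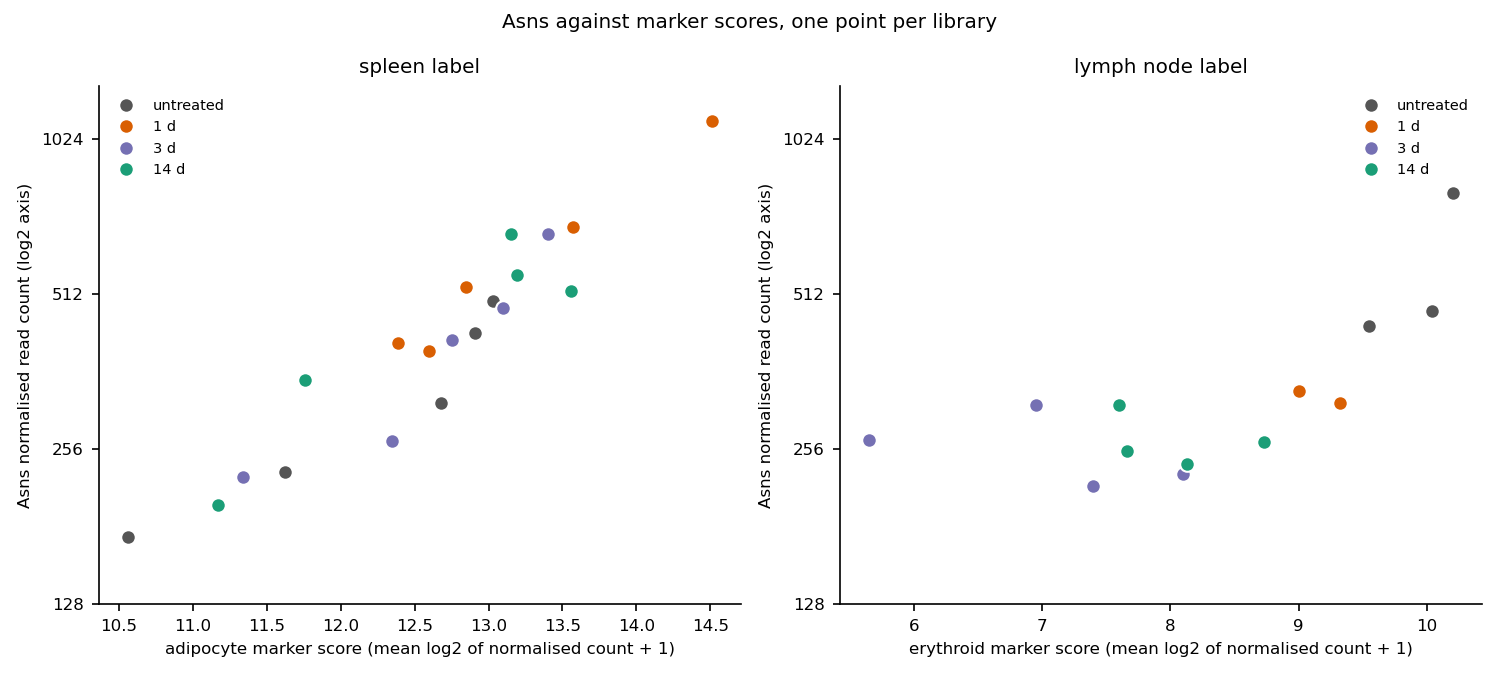
Asns normalised read count (log2 axis) against the adipocyte marker score in the spleen-labelled set and the erythroid marker score in the lymph-node-labelled set, both as mean log2 of normalised count + 1, with 1 point per library and colours for the time on NAM. Asns follows the adipocyte score over all 20 libraries (r = 0.95), and in the lymph-node-labelled set the 3 untreated libraries hold the highest Asns and the highest erythroid scores.

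The letters TGATGNAA, the core of the composite element bound by C/EBP and ATF factors, were searched on both strands of the 250 bases before the start of each gene in RefSeq sequence (GRCm38.p6). They occurred before 2 of the 9 members with a sequence in the table, Asns and Chac1, and before 1134 of all 32851 starts (3.45%). Slc7a5 had no sequence to search. The 30 bases around each match are shown for these members, with the matched letters in capitals. Elements outside the 250 bases, or with other letters, were not searched for. The window of Asns is chr6:7693214-7693243 read on the minus strand, with the match starting at position -23 relative to the start, and that of Chac1 is chr2:119351038-119351067 read on the plus strand, at position -193, with the match on the opposite strand.
Asns: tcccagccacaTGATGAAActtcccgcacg
Chac1: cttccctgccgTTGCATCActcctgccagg
These are matches of letters, and none of the libraries measures binding to them.

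Chac1, which degrades glutathione and is among the most strongly induced ATF4 targets in many cells, had few reads and gave wide intervals. Its untreated values in the spleen-labelled set were 3.463, 26.35, 32.63, 34.79 and 30.96 normalised counts, from 2 to 30 reads. Log2 changes were -0.07, 0.22 and 0.65 at 1, 3 and 14 d (SE 0.51 each), so that the 95% interval at 14 d ran from -0.418 to 1.708. The untreated values of the lymph-node-labelled set were 23.48, 13.23 and 24.31 and those at 1 d 41.34 and 31.33. There the changes were 0.84, 0.61 and 0.73 (adjusted p = 0.37, 0.449 and 0.45), and the groups at 3 d (17.7 to 50.97) and 14 d (20.58 to 42.01) overlapped untreated. Without covariates no change of Chac1 was called within a set, and intervals as wide as these leave room for changes of more than 1 on the log2 scale. With the adipocyte score as a covariate Chac1 was called higher at 14 d than at 1 d (1.13, adjusted p = 0.0436, where the 11 alternatives ran from 0.0436 to 0.552).

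Aldh18a1, which makes the proline precursor from glutamate, had lower values on treatment in the lymph-node-labelled set, short of the threshold. The untreated values were 2734, 3432 and 2835 normalised counts, those at 1 d 2417 and 2118, those at 3 d 1929, 2219, 2263 and 2447, and those at 14 d 2406, 2835, 2138 and 2162. All libraries at 1 and 3 d lay below all untreated ones. The log2 changes were -0.40, -0.44 and -0.33 (adjusted p = 0.144, 0.0557 and 0.191), and the second passed without 3 d replicate 4 (-0.49, adjusted p = 0.0391) and in 2 of 12 alternatives of the processing (adjusted p from 0.00624 to 0.999). In the spleen-labelled set the changes were 0.03, -0.04 and 0.03, and the differences between the labels, 0.43, 0.40 and 0.37, did not pass (adjusted p = 0.179, 0.234 and 0.887).

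Slc7a5, the light chain of a transporter for leucine and other large neutral amino acids, gave no call. Its normalised counts were 1566 to 2474 in the spleen-labelled set and 897.7 to 1183 in the lymph-node-labelled set, and its log2 changes from untreated lay between -0.15 and 0.05.

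**Figure D3:**
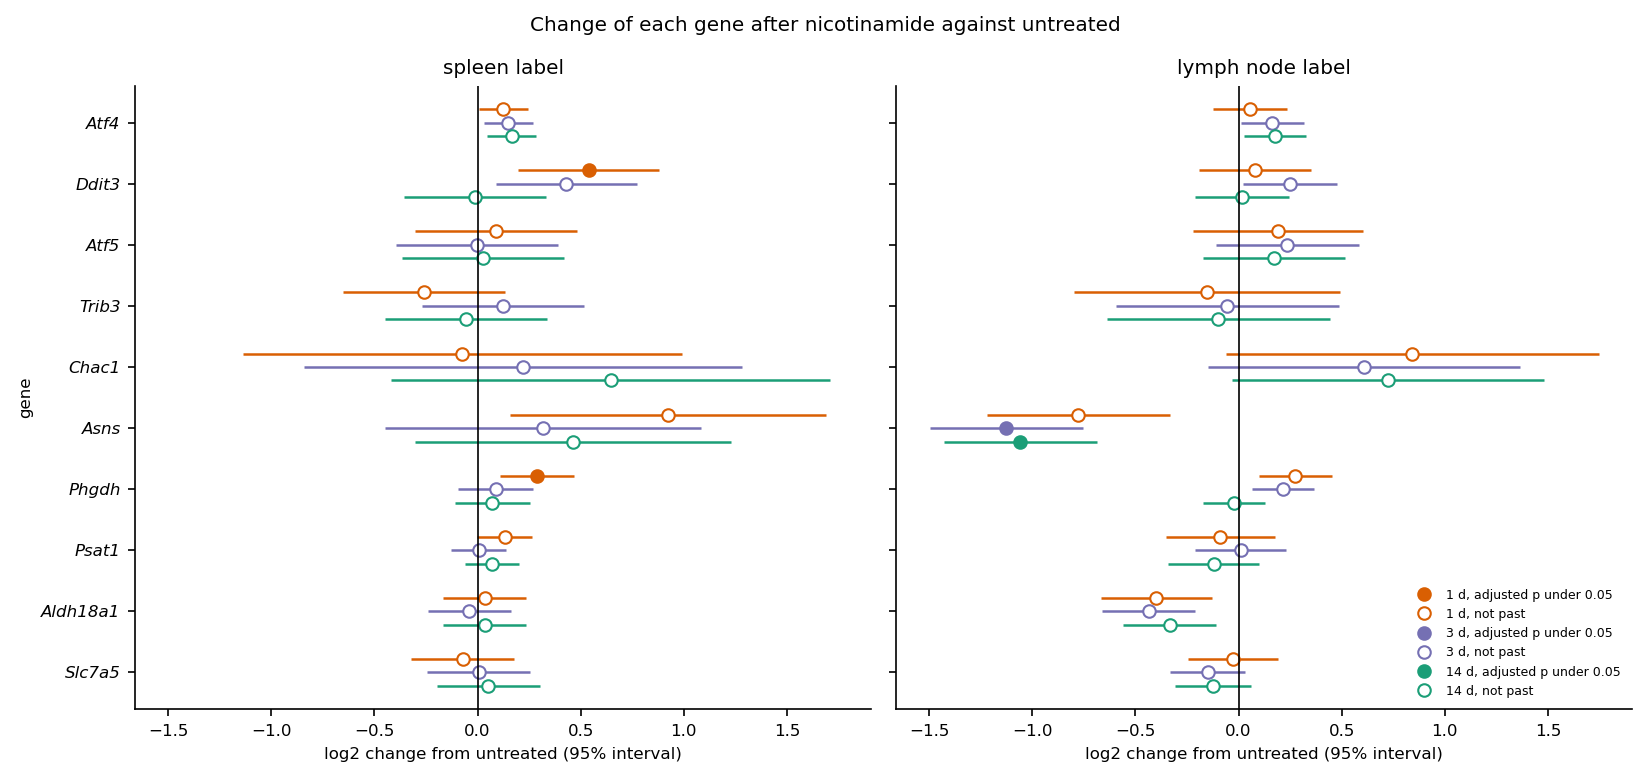
Log2 change from untreated of each of the 10 genes at 1, 3 and 14 d under each label, with 95% intervals, filled where the limma adjusted p was under 0.05. The filled points are Ddit3 (0.54) and Phgdh (0.29) at 1 d in the spleen-labelled set and Asns at 3 d (-1.13) and 14 d (-1.06) in the lymph-node-labelled set.

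The number of the 10 genes called is set beside the share of all rows called in the same comparison. At 1 d in the spleen-labelled set 2 of 10 were called, both higher, where 16.6% of 18243 rows were called (8.56% higher and 8.05% lower). The median log2 change of the 10 was 0.106, against 0.005 over all rows, and 7 of 10 lay above 0, as did 50.7% of all rows. By limma 4 of 10 had an unadjusted p under 0.05, as had 30.9% of all rows. At 3 d 0 of 10 were called, where the background was 5.55% (2.82% higher and 2.74% lower), 2 had an unadjusted p under 0.05, as had 22% of all rows, edgeR called 0 and DESeq2 1, and the median was 0.105 against 0.001. At 14 d 0 of 10 were called and 1 had an unadjusted p under 0.05 (2.8% of all rows), and limma and edgeR called 0% of rows in either direction and DESeq2 1 row. Between 14 d and 1 d, 1 of 10 was called, lower, where 10.6% of rows were called (5.22% higher and 5.41% lower).

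In the lymph-node-labelled set 0 of 10 were called at 1 d, where 1.21% of 18215 rows were called (0.884% higher and 0.329% lower). There 3 of the 10 had an unadjusted p under 0.05 (15% of all rows), edgeR called 0 and DESeq2 1, which was Asns. At 3 d 1 of 10 was called, lower, against 1.24% of rows (0.335% higher and 0.906% lower), and 5 had an unadjusted p under 0.05 (14.8% of all rows). At 14 d 1 of 10 was called, lower, against 0.791% (0.11% higher and 0.681% lower). The median log2 changes were 0.014, 0.088 and -0.06. Between 14 d and 3 d 0 of 10 were called by limma, edgeR or DESeq2, against 0.011% of rows, all lower, by limma, and 2 had an unadjusted p under 0.05 (5.84% of all rows). In the tests of the difference between labels 0 of 10 were called at each time, where 1.69%, 0.735% and 0.14% of rows were called. An unadjusted p under 0.05 was reached by 2 of 10 each time and by 17.1%, 13.1% and 4.85% of all rows.

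The 10 genes did not move as 1 block across libraries. Of the 45 pairs in the spleen-labelled set, 5 passed on both Pearson and Spearman correlation after adjustment over 90 pairs, and 3 of these were positive. Ddit3 and Phgdh had an r of 0.64 (permutation p = 0.00156, adjusted 0.0351) and a rho of 0.74 (permutation p = 0.00031, adjusted 0.0093), with an r of 0.58 without the 2 libraries farthest from the median and 0.50 within groups. Asns and Atf5 had an r of 0.73 (permutation p = 0.00017, adjusted 0.0153) and a rho of 0.69 (permutation p = 0.00104, adjusted 0.0234), with an r of 0.53 without 2 libraries and 0.78 within groups. Both of these genes also went with the adipocyte score, Atf5 with an r of 0.80 and a rho of 0.82 (permutation p = 2e-05 and 3e-05, adjusted 0.0018 and 0.0027, r of 0.68 without 2 libraries, 0.83 within groups). Slc7a5 and Aldh18a1 had an r of 0.72 and a rho of 0.78 (permutation p = 0.00038 and 0.00014, adjusted 0.0171 and 0.0093, r of 0.76 without 2 libraries, 0.77 within groups). The negative pairs were Atf5 with Slc7a5 (r = -0.63 and rho = -0.66, permutation p = 0.00228 and 0.00227, adjusted 0.041 and 0.0409, r of -0.47 without 2 libraries, -0.63 within groups) and Atf5 with Aldh18a1 (r = -0.69 and rho = -0.76, permutation p = 0.00096 and 0.00023, adjusted 0.0288 and 0.0093, r of -0.71 without 2 libraries, -0.73 within groups). With the score of the high endothelial venule markers (Glycam1, Chst4, Fut7 and Madcam1) Asns had an r of -0.69 and a rho of -0.78 (permutation p = 0.00057 and 0.00014, adjusted 0.0256 and 0.0084, r of -0.77 without 2 libraries, -0.75 within groups). Aldh18a1 went the other way with that score, with an r of 0.73 and a rho of 0.71 (permutation p = 0.00032 and 0.00057, adjusted 0.0192 and 0.0256, r of 0.63 without 2 libraries, 0.83 within groups). These are the 4 of 180 relations of a member with a marker score that passed on both measures. Over all 45 pairs r ran from -0.69 to 0.73 with a median of 0.12, and in the lymph-node-labelled set from -0.52 to 0.72 with a median of 0.1 and 0 of 45 pairs past after adjustment.

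The other genes of the pathway were taken from 9 lists with 102 genes, of which 100 rows were tested under each label. At 1 d in the spleen-labelled set 15 were called higher and 4 lower, which is 19% where 16.6% of all rows were called. At 3 d 4 were higher and 0 lower (4.0% where 5.55% of all rows were called), at 14 d 0 were called by limma, edgeR or DESeq2 and 3 had an unadjusted p under 0.05, and between 14 d and 1 d 6 were higher and 8 lower (14.0% against 10.6%). In the lymph-node-labelled set 8 were higher and 0 lower at 1 d (8.0% where 1.21% of all rows were called), and 1 was higher and 1 lower at 3 d and again at 14 d (2.0% against 1.24% and 0.791%). Between 14 d and 3 d 0 were called by limma, edgeR or DESeq2, and 3 had an unadjusted p under 0.05. The 19 calls at 1 d in the one set and the 8 in the other were all made by edgeR and by DESeq2 too. DESeq2 called more rows of the lists at 1 d. It called 22 in the spleen-labelled set, 18 higher and 4 lower, and 15 in the lymph-node-labelled set, 13 higher and 2 lower. The lists were chosen with earlier results of these data known, so these shares are no test of the lists. The counts of the single lists below stand against 8.56% of all rows higher and 8.05% lower at 1 d in the spleen-labelled set, and 0.884% and 0.329% in the other. Genes named for comparisons in which their list did not have its most calls were picked after their values were seen.

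Upstream of ATF4, none of the 4 eIF2 alpha kinase genes was called by limma, edgeR or DESeq2 within a set, and at most 1 of them had an unadjusted limma p under 0.05 in a comparison. Of 10 genes for eIF2, its exchange factor eIF2B and its phosphatase, 2 rose at 1 d in the spleen-labelled set, where 8.56% of all rows did. They were Eif2b1, a subunit of eIF2B (575.3 ± 60.78 to 707.5 ± 46.81 normalised counts, SD, n = 5 each, log2 change 0.30, adjusted p = 0.0208), and Ppp1r15b, which directs phosphatase to eIF2 alpha (0.26, adjusted p = 0.0205).

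Among 13 bZIP partners, Cebpg, a C/EBP factor that pairs with ATF4, rose at 1 d and at 3 d in the spleen-labelled set. Its normalised counts were 2452 to 2949 in untreated libraries, 3364 to 3980 at 1 d and 3572 to 4112 at 3 d, without overlap. The log2 change was 0.40 (SE 0.065, adjusted p = 0.000823) at 1 d and 0.43 (adjusted p = 0.00472) at 3 d, and at 14 d Cebpg was lower than at 1 d (-0.23, adjusted p = 0.0283). Creb1, a related factor that responds to cyclic AMP, fell at 1 d (-0.43, adjusted p = 0.0202). Between 14 d and 1 d, where this list had most calls, Cebpb (0.80, adjusted p = 0.0356), Cebpd (0.45, adjusted p = 0.0205), Creb1 (0.42, adjusted p = 0.0299) and Atf2 (0.24, adjusted p = 0.0453) were higher. With the pancreatic acinar marker score as a covariate, 2 rows of all 9 lists were higher there and 9 lower, in place of 6 and 8. At most 2 of these genes thus kept their call in that fit.

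Of 12 other targets in amino acid and folate metabolism, 3 rose at 1 d in the spleen-labelled set, and the list's median log2 change was 0.256. Psph, the last enzyme of serine synthesis, went from 458.8 ± 31.12 to 619.3 ± 101.5 normalised counts (0.42, adjusted p = 0.00665). Pck2, the mitochondrial phosphoenolpyruvate carboxykinase, went from 1302 ± 34.13 to 1730 ± 85.48 (0.41, adjusted p = 0.00451). Got1, the cytosolic aspartate aminotransferase, had a log2 change of 0.37 (adjusted p = 0.0227). At 14 d all 3 were lower than at 1 d (-0.43, -0.35 and -0.37). Serine synthesis thus had its first and last enzyme called and its middle enzyme, Psat1, not.

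Of 14 aminoacyl-tRNA synthetases, which charge tRNAs with amino acids, 3 rose at 1 d in the spleen-labelled set, against 8.56% of all rows. They were Yars (0.37, adjusted p = 0.00687), Vars (0.29, adjusted p = 0.0322) and Wars (0.26, adjusted p = 0.0144), and Yars also at 3 d (0.31, adjusted p = 0.0373). Of 9 mitochondrial stress proteins 4 rose at 1 d, all of them proteases of the mitochondrion. Afg3l2 went from 501.3 to 618.3 in untreated libraries to 700.7 to 874.5 (0.47, adjusted p = 0.000822), and the others were Lonp1 (0.32, adjusted p = 0.0311), Yme1l1 (0.31, adjusted p = 0.0036) and Oma1 (0.22, adjusted p = 0.0495). Afg3l2 and Yme1l1 were called at 3 d as well (0.31 and 0.25).

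Of 13 signalling and stress targets tested, 3 were called lower and 0 higher at 1 d in the spleen-labelled set, and the list's median log2 change was 0.062. Soat2, a cholesterol esterification enzyme, went from 28.18 to 45.42 normalised counts in untreated libraries to 16.67 to 24.0 (-0.83, adjusted p = 0.0172), and Ndrg1 (-0.29, adjusted p = 0.0385) and Herpud1 (-0.24, adjusted p = 0.0296) were lower by less. With the adipocyte score as a covariate 27 of the 100 rows were called, 20 higher and 7 lower, while the share over all rows rose from 16.6% to 20.6%, and 15 of the 19 called without it were among them, those lost being Ndrg1, Herpud1, Xbp1 and Lonp1. With the pancreatic marker score as a covariate 17 were called, 15 higher and 2 lower, and 14 of the 19 were among them. Without replicate 1 at 3 d, 15 rows were called at 3 d, 9 higher and 6 lower, in place of 4, while the share over all rows rose from 5.55% to 15.2%. With all libraries, the adipocyte score as a covariate gave 10 calls at 3 d, 8 higher and 2 lower. The pancreatic score as a covariate and DESeq2 gave 7 each, 5 higher and 2 lower, and edgeR gave 5, all higher. Each of these held the 4.

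The 8 calls at 1 d in the lymph-node-labelled set lay in the lists of bZIP partners, signalling targets and chaperones, each of which also held calls in the spleen-labelled set. Ddit4, an inhibitor of mTORC1 induced by ATF4 and by glucocorticoids, went from 3508 to 5841 normalised counts in untreated libraries to 15430 and 16980 (log2 change 1.93, SE 0.213, adjusted p = 0.000195). Cebpd, another C/EBP factor, went from 710.4 to 786.8 to 1604 and 1625 (1.13, SE 0.097, adjusted p = 1.53e-05). Jdp2 (0.82, adjusted p = 0.0333) and Herpud1 (0.46, adjusted p = 0.00933) were higher too. Cebpd was still higher at 3 d (0.55, adjusted p = 0.0018) and Ddit4 at 14 d (0.92, adjusted p = 0.0233).

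Of 16 chaperones and folding factors of the endoplasmic reticulum, 4 rose at 1 d in the lymph-node-labelled set, and the list's median log2 change was 0.344. Hsp90b1, the HSP90 of the endoplasmic reticulum, read 41210 and 42370 normalised counts against 27880 to 30450 untreated (0.52, adjusted p = 0.0297). Pdia4, a disulfide isomerase, had a log2 change of 0.45 (adjusted p = 0.0297), and Dnajc3, a co-chaperone, 0.35 (adjusted p = 0.0498). Hspa5, the chaperone BiP, rose in both sets at 1 d, by 0.35 (adjusted p = 0.0486) in the lymph-node-labelled set and by 0.44 (adjusted p = 0.0131) in the spleen-labelled set, where Xbp1 was the other called gene of this list (0.33, adjusted p = 0.0463). Plasma cell markers, 7 genes of cells with a large endoplasmic reticulum, summed to 82330 and 138700 in the 2 libraries at 1 d and to 59080 to 62330 in untreated libraries. The neutrophil markers summed to 24340 and 33880 at 1 d against 10610 to 20800 untreated (0 of 6 called, median log2 change 0.84), and 2 of the 6 were lower at 14 d (median -1.15). The high endothelial venule score was 6.33 and 6.36 at 1 d and 5.62 to 5.74 untreated, as a mean log2 level of 4 genes. The part of these 3 cell types in the values was not tested. Without replicate 1 at 1 d, the library with pancreatic acinar markers, the group is 1 library assumed to vary like the other groups, and only Cebpd (1.14, adjusted p = 0.00105) and Ddit4 (1.86, adjusted p = 0.0162) of the 8 were still called, where 0.379% of all rows were in place of 1.21%. The 6 not called there had log2 changes of 0.34 to 0.65, against 0.35 to 0.82 with both libraries. With the pancreatic marker score as a covariate the same 2 of the 8 were called, the other 6 had changes of 0.34 to 0.64, and 0.494% of all rows were called. With the erythroid score as a covariate 4 of the 8 were still called at 1 d, and of the 2 calls each at 3 and 14 d 0 were.

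Slc43a1, a transporter of large neutral amino acids like Slc7a5, fell beside Asns in the lymph-node-labelled set and was the only 1 of 10 transport genes called. It went from 674.6 ± 133.7 normalised counts (SD, n = 3) to 289.9 ± 45.67 at 3 d (-1.21, SE 0.162, adjusted p = 0.000991) and 331.6 ± 65.91 at 14 d (-1.02, adjusted p = 0.00683, n = 4 each). With the erythroid score as a covariate its changes were -0.70 and -0.69 and did not pass (adjusted p = 0.999 and 0.834), and neither did those of Cebpd at 3 d (0.59, adjusted p = 0.999) and Ddit4 at 14 d (0.97, adjusted p = 0.794).

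Between the labels the change at 1 d differed for 6 of 98 rows (6.12%, where 1.69% of all rows differed). Ddit4 (-2.42, adjusted p = 0.00199), Bcat1 (-1.71, adjusted p = 0.0194), Cebpd (-1.39, adjusted p = 0.000147), Jdp2 (-1.16, adjusted p = 0.0259) and Herpud1 (-0.70, adjusted p = 0.00262) changed less or in the other direction in the spleen-labelled set, and Afg3l2 (0.50, adjusted p = 0.0495) changed more. Bcat1, a branched-chain amino acid aminotransferase, also differed at 3 d (-1.44, adjusted p = 0.0396), where it was the only such row, and at 14 d 0 of the 98 rows differed by limma and 9 had an unadjusted p under 0.05, as had 4.85% of all rows.

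**Figure D4:**
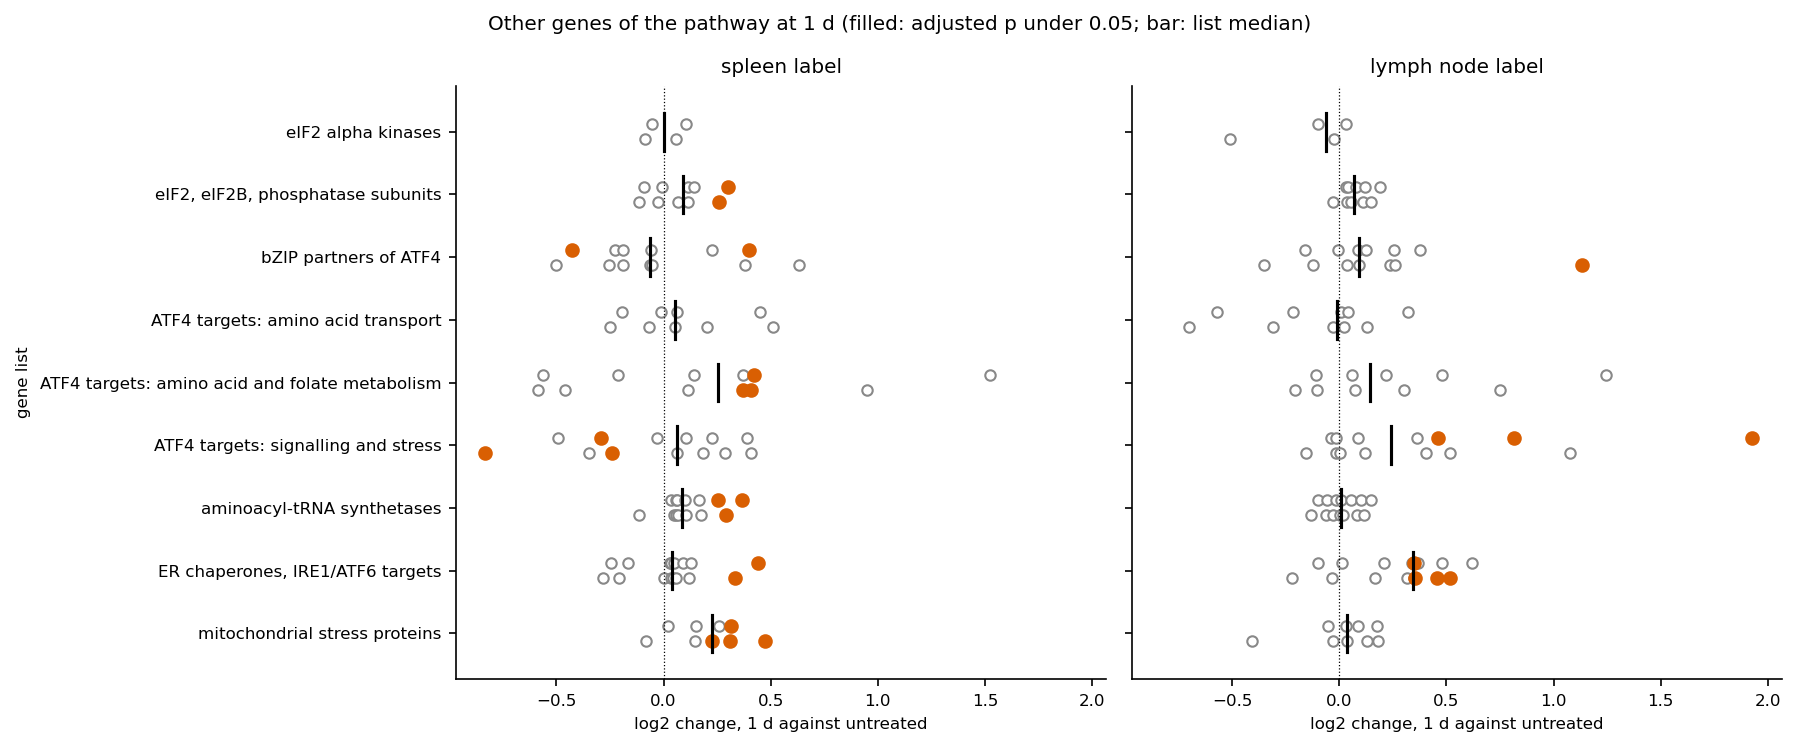
Log2 change at 1 d of each gene in the 9 pathway lists under each label, filled where the limma adjusted p was under 0.05, with a bar at the median of each list. In the spleen-labelled set the filled points spread over most lists (15 higher and 4 lower), and in the lymph-node-labelled set they sit among the chaperones, the signalling targets and Cebpd (8 higher and 0 lower).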

How the data were processed

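The authors deposited a single table of read counts per gene divided by DESeq2 size factors, a signal on a linear scale, with mm10 positions and a gene annotation that its header credits to the sequencing company. Libraries were polyA-selected and paired-end. The submitters' processing notes name FastQC, Picard, SAMtools, STAR 2.4.0 and DESeq2. Strand use in the counting is not given in the sources used here, so antisense and overlapping genes can share reads. All columns were mapped to samples by their labels, and 0 of 56 replicate pairs were identical.

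The test was limma 3.58.1 (R 4.3.3, trend, two-sided) on log2(normalised count + 1) over rows with a mean of at least 10, with the 4 groups of a label in one fit and Benjamini-Hochberg adjustment over 18243 rows (spleen label) or 18215 rows (lymph node label). A log2 change on this scale understates that of low genes. The difference between labels was an interaction over 17147 rows and treats the labels as different animals. The test was first checked on simulated reads with 2-fold changes in 200 rows, of which 73% to 94.5% were found, by comparison. Smaller changes and differences in cell content were not simulated.

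The members and lists were chosen with earlier results of these data known. The 10 members are named whatever their values. Of each pathway list the genes named are up to 4 with the largest change among those called, in the comparison where the list had most calls. Alternatives were the pseudocount, the filter, quantile scaling, library weights, fits of only 2 groups, the replicate number as a block, leaving out each library, the rule of an unadjusted p of 0.05 with a fold of 1.5, an adipocyte and a pancreatic covariate, and edgeR 4.0.16 and DESeq2 1.42.0 on whole reads recovered from the steps of the values (100.0% whole in each library, within 0.1 read). The erythroid covariate and the refits of the pathway lists were added after the data were seen. Marker scores are mean log2 levels (of the erythroid markers 1 is not reported here and was left out of the score), and correlations used 100000 permutations, two-sided. Lengths are exon unions of GENCODE, and promoter sequence is RefSeq (GRCm38.p6). The authors' own comparisons were not used.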

Additional observations from a re-analysis of the deposited data

Results flagged for a closer look

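Of 60 sets of 4 or 5 libraries tested for 1 library far from the rest, 8 were flagged by Dixon's gap ratio, where chance flags about 1 in 20. Replicate 1 at 3 d in the spleen-labelled set was flagged in 2 genes, with a Ddit3 of 100.7 normalised counts where the other 4 held 183.2 to 200.0, and a Phgdh of 1316 where the others held 1583 to 1689. In the same label untreated replicate 5 had an Atf4 of 6475 (others 6841 to 6954), untreated replicate 1 a Chac1 of 3.463 (others 26.35 to 34.79), 1 d replicate 2 an Atf5 of 636.0 (others 276.1 to 337.0) and 14 d replicate 2 a Ddit3 of 158.3 (others 115.1 to 120.4). In the lymph-node-labelled set 14 d replicate 4 had a Ddit3 of 321.4 (others 256.0 to 265.2) and 14 d replicate 1 an Atf5 of 137.1 (others 114.8 to 115.5).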

How the results depend on the processing

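No called member changed direction under any alternative run for it. The other pathway genes were refitted only with the adipocyte, pancreatic and erythroid covariates, with edgeR and DESeq2, and without replicate 1 at 3 d of the spleen-labelled set or replicate 1 at 1 d of the other. The number of members called at 1 d in the spleen-labelled set was 2, and 1 under quantile scaling (Phgdh), in a fit of only 2 groups (Ddit3) and under the rule of an unadjusted p with a 1.5-fold change, where the 1 was Asns (log2 change 0.92) and both Ddit3 and Phgdh were lost. At 3 d it was 0, and 2 with library weights and 1 by DESeq2. Library weights also raised the share of all rows called there from 5.55% to 25.9%. Between 14 d and 1 d it was 1, and 0 without the filter, under quantile scaling and under the unadjusted rule, and 2 with the adipocyte covariate, which added Chac1 (1.13, adjusted p = 0.0436). In the lymph-node-labelled set the count at 1 d was 0, and 1 under the unadjusted rule and by DESeq2. DESeq2 called 544 rows there against 221. At 3 d it was 1, and 2 with library weights and by DESeq2 (Aldh18a1 added) and 0 with the erythroid covariate. At 14 d it was 1, and 0 with the erythroid covariate and in a fit of only 2 groups. The difference between labels was 0, and 1 at each time under the unadjusted rule (Asns) and 1 at 3 d with library weights (Aldh18a1), which raised the share of all rows called there from 0.735% to 11.3%. With the pancreatic covariate no count of members changed. The cause of these changes was not tested.

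Leaving out each library in turn gave 0 to 2 calls at 1 d and at 3 d, 0 to 0 at 14 d and 0 to 1 between 14 d and 1 d in the spleen-labelled set, and 0 to 1 at 1 d, 1 to 2 at 3 d, 1 to 1 at 14 d and 0 to 0 between 14 d and 3 d in the lymph-node-labelled set. The differences between labels stayed at 0. With the replicate number as a block the counts were 2, 0, 0 and 1 in the spleen-labelled set, 0, 1, 1 and 0 in the lymph-node-labelled set and 0 for each difference, the same counts as without it. Deviations of same-numbered libraries correlated from -0.50 to 0.47 (median 0.04) in the spleen-labelled set, with 13 of 30 pairs over 0.1. In the lymph-node-labelled set they correlated from -0.11 to 0.08, with 0 of 16 pairs over 0.1. The labels do not say whether a number marks anything shared, and this was not tested. Chac1 had the fewest reads of the members in both sets.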
